A study of Mus musculus with 6 samples.

Results

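The tumour necrosis factor (TNF) superfamily genes on the array were followed in mouse ureters 4 days after unilateral ureteral obstruction, a surgical block of urine flow through one ureter. Members were the genes named Tnfsf or Tnfrsf followed by their number, with Tnf, Lta, Ltb, Ltbr, Fas, Fasl, Cd40, Cd40lg, Cd70, Eda, Edar, Eda2r and Relt (a rule on names, not on values). This gave 45 members of 36610 named genes on the array: 18 ligands, 26 receptors and 1 transcript from the strand opposite Tnfsf13. Of these, 38 of 22259 measured genes passed the signal filter, which asked that a probe be well above background on all arrays of at least 1 group. They were 14 ligands, 23 receptors and the opposite-strand transcript.

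The comparison set 3 ureters of Col17a1-WT mice against 3 of Col17a1-KO mice, all C57BL/6N and 2 months old. Col17a1 encodes collagen XVII, a transmembrane collagen of the hemidesmosomes that fasten epithelial cells to the basement membrane. All mice were male except the third KO mouse, and all 6 ureters were obstructed, so no unobstructed ureter serves as a baseline. Which stretch of Col17a1 was altered, in which cells, and whether the numbered mice were littermates is not in the labels. If they were not independent, the p-values measure only the spread between these samples.

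TNF family ligands are mostly trimeric membrane proteins, many of them released by proteases, and their receptors carry cysteine-rich extracellular domains. Receptors with a death domain can start apoptosis or necroptosis, while others bind TRAF adaptors and activate NF-kB. In the obstructed urinary tract, TNF is a well-known product of leukocytes and epithelium, and the TWEAK receptor Fn14 (Tnfrsf12a) is a known marker of injured epithelium.

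Col17a1 itself went against its label. Its log2 levels, here and below the log2 signal minus the array's 75th percentile, were -2.33, -0.80 and -0.39 in the WT ureters and 0.50, 0.53 and 0.40 in the KO ureters. The groups did not overlap, the KO ureters were higher by 1.65 ± 0.48 (SE; limma adjusted p = 0.457), and the second probe was higher by 1.10. A probe outside an altered stretch checks nothing, and that stretch is not given, so the second group is called KO-labelled throughout. The array signal at the 75th percentile was 143.7 to 164.9 and 35482 to 36567 probes per array were detected over background, with overlapping ranges in the groups. The second WT array stood apart in 6 kidney markers, whose summed level, each gene's signal over the array's 75th percentile, was 2.91 against 0.508 to 0.609 on the others. The number of arrays, 3 a group, limits the precision, and an exact permutation test of 3 against 3 cannot give a p below 0.1.

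The array reads each gene through 60-base probes. The first 30 bases of the probes behind the main results are shown to identify what was measured, 5′ to 3′ on the strand of the transcript, with the mm9 position of the whole probe from the file. No mm9 annotation was used here, so exon and UTR positions were not assigned.
Tnfsf18 (chr1:163435352-163435411, plus strand): gggcacaaagactcttctgtttgcatatct
Tnfsf12 (chr11:69500528-69500587, minus strand): tttgatgagggaaaggctgtctacctgaag
Tnfsfm13 (chr11:69496657-69496716, minus strand): atttcccattccaaaaactggctagacaaa
Tnfsf13os (chr11:69504584-69504643, plus strand): tgggctaccttaccatcattcttgtcatct
Tnfrsf21 (chr17:43225326-43225385, plus strand): atggcatcttgtgactcctagaagtagaca
Lta (chr17:35340275-35340334, minus strand): aggggaaaaatagaaagccgtcagatgaca
Tnf (chr17:35336795-35336854, minus strand): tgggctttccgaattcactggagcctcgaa
Tnfrsf12a (chr17:23812746-23812805, minus strand): agccttccaaggtgtccaattgccctatct
The Tnfsf12, Tnfsfm13 and Tnfsf13os probes lie in one stretch of chromosome 11, the last on the strand opposite the others. The accessions listed for the Tnfsfm13 probe belong to both Tnfsf13, which encodes the ligand APRIL, and Tnfsfm13, the read-through transcript that joins Tnfsf12 to Tnfsf13, so this probe cannot tell them apart. Lta and Tnf are neighbours on chromosome 17 and are read by separate probes.

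No member passed the limma adjusted threshold of 0.05, and neither did any of the 22259 genes (0%). At an unadjusted p under 0.05, 5 of 38 members (13.2%) differed between the groups, against 9.06% of all genes. Of these, 3 were higher in the KO-labelled ureters (7.89% of members, 4.35% of all genes): the ligands Tnfsf18 and Lta and the receptor Tnfrsf21. Lta passed the signal filter through the KO-labelled arrays alone, so its place among them is no support; with all 6 arrays required to be above background, 2 members were higher. Of the 5, the other 2 were lower (5.26% of members, 4.70% of all genes), namely the Tnfsfm13 probe and Tnfsf13os. The same 5 members were those whose groups did not overlap, again 13.2% of members, against 15.4% of all genes. These shares are close to the background, so the counts show nothing particular to the family. In all, 18 members were higher and 20 lower, with a median log2 difference of -0.03 against -0.0009 over all genes. The members' median was below 0 in 14 of 15 alternatives, from -0.08 to -0.003, and 0.09 without the first KO-labelled mouse.

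**Figure D1:**
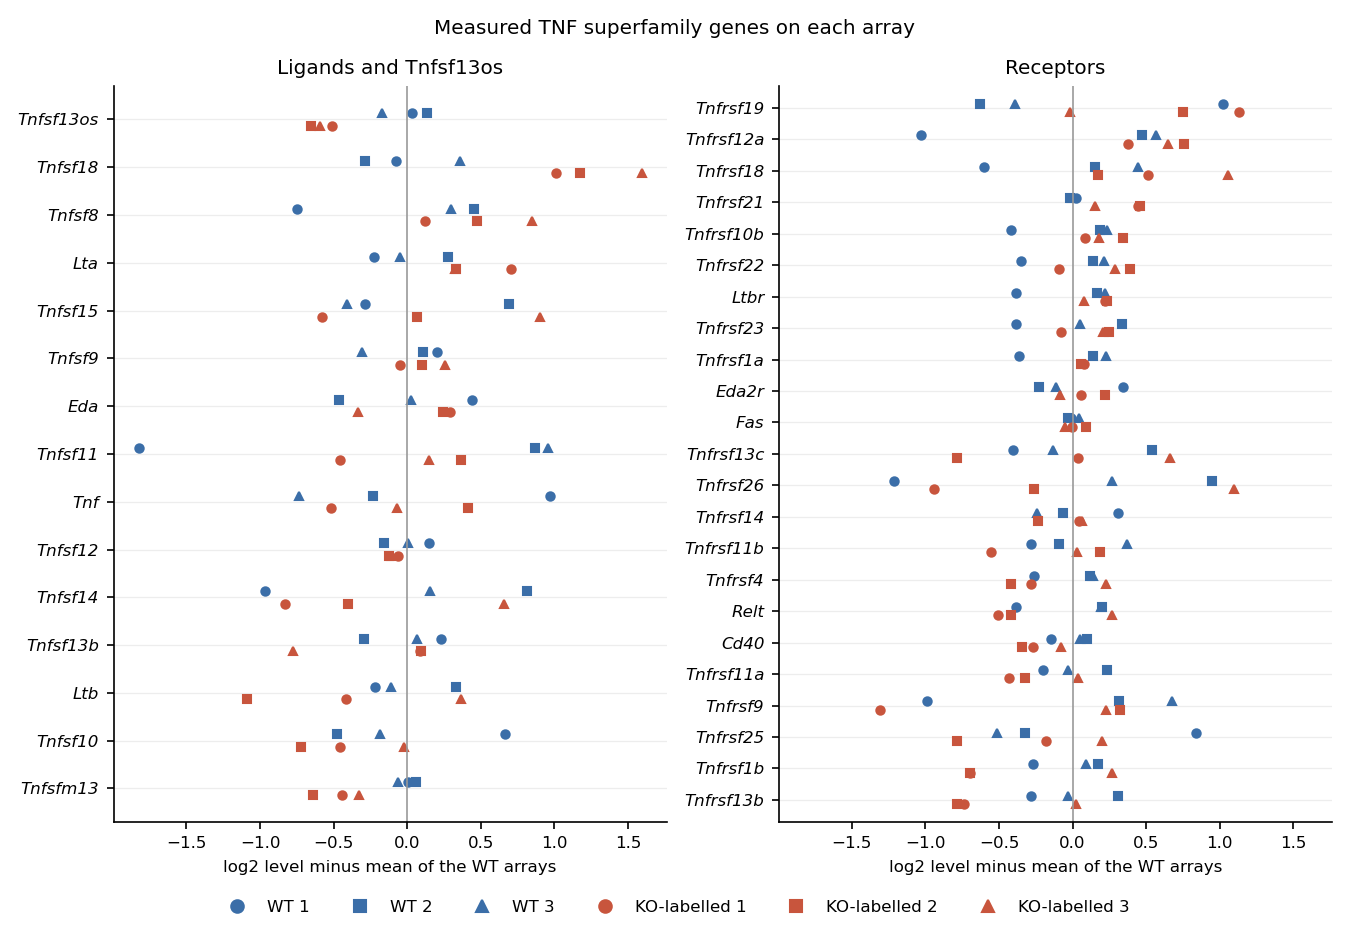
The log2 level of each measured member on each of the 6 arrays, minus the mean of its WT arrays, with ligands and Tnfsf13os on the left and receptors on the right; blue symbols are WT and red symbols KO-labelled ureters, and the symbol shape gives the mouse number. Red and blue separate for Tnfsf18, Lta, Tnfsfm13, Tnfsf13os and Tnfrsf21 and overlap for the other measured members.

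The largest difference among the ligands was that of Tnfsf18, which encodes GITRL, a costimulatory ligand for T cells. Its log2 levels were -3.84, -4.05 and -3.40 in the WT ureters and -2.75, -2.59 and -2.17 in the KO-labelled ureters. Each KO-labelled ureter lay above every WT ureter. The difference was 1.26 ± 0.22 (SE), a 2.39-fold higher level with a 95% confidence interval of 1.64 to 3.49 (limma adjusted p = 0.398). It was the only measured member with a difference over 1. The background-subtracted signals were low, 8.67 to 15.0 in WT and 23.5 to 32.3 in KO-labelled ureters, though well above background on all 6 arrays. With a normexp background correction, which adds an offset of 50 to signals of this size, the log2 difference was 0.28; p stayed under 0.05 in 15 of 15 alternatives.

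The receptor of GITRL is GITR, encoded by Tnfrsf18 and best known from regulatory and activated T cells. Log2 levels of Tnfrsf18 were -1.54, -0.78 and -0.49 in the WT ureters and -0.42, -0.77 and 0.12 in the KO-labelled ureters. The groups overlapped in the second KO-labelled mouse, and the difference of 0.58 ± 0.33 (SE) did not pass the unadjusted threshold (limma adjusted p = 0.645). It was 0.28 without the first WT mouse and 0.34 without the third KO-labelled mouse. The summed level of 13 T and NK cell markers was 8.18 to 9.44 in WT and 6.98 to 10.1 in KO-labelled ureters, and none of the 13 differed at an unadjusted p under 0.05.

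The probe shared by Tnfsf13 and the read-through transcript Tnfsfm13 was lower in the KO-labelled ureters. APRIL, the Tnfsf13 product, supports plasma cells. The log2 levels were 1.87, 1.92 and 1.80 in the WT ureters and 1.42, 1.23 and 1.54 in the KO-labelled ureters. All 3 WT values lay above all 3 KO-labelled values, and the WT values were close together. The difference was -0.47 ± 0.12 (SE), or 0.722-fold with a 95% confidence interval of 0.593 to 0.88 (limma adjusted p = 0.438), and p was under 0.05 in 15 of 15 alternatives.

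Tnfsf13os, transcribed from the opposite strand of the same locus, was lower as well. On the log2 scale it stood at -0.76, -0.65 and -0.96 in the WT ureters and -1.31, -1.45 and -1.38 in the KO-labelled ureters. The groups were again separate, with a difference of -0.59 ± 0.12 (SE; limma adjusted p = 0.418) and p under 0.05 in 15 of 15 alternatives.

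Tnfsf12, the upstream neighbour that encodes the Fn14 ligand TWEAK, did not differ by this threshold. Levels on the log2 scale were -0.37, -0.67 and -0.51 in the WT ureters and -0.58, -0.64 and -0.62 in the KO-labelled ureters. The KO-labelled values lay inside the WT range, with a difference of -0.09 and a 95% confidence interval of -0.37 to 0.18 (limma adjusted p = 0.831). Whether the 3 transcripts of this locus differ from each other in their change was not tested.

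APRIL binds TACI, encoded by Tnfrsf13b, and BCMA, encoded by Tnfrsf17. Tnfrsf17 was well above background on only 1 WT array and was not measured. The log2 levels of Tnfrsf13b were 0.94, 1.53 and 1.19 in the WT ureters and 0.48, 0.43 and 1.24 in the KO-labelled ureters. The first and second KO-labelled mice were below all WT mice and the third was within the WT range. The difference of -0.50 ± 0.27 (SE) did not pass the unadjusted threshold (limma adjusted p = 0.617). On 2 other probes of the gene the difference was -0.55 and -0.78, the latter from a probe that did not pass the filter. Without the third KO-labelled mouse, the female, the difference was -0.76 and passed the unadjusted threshold, as it did over the mean of the gene's measured probes (-0.53). Without any other single mouse it was -0.64 to -0.35 and did not pass. The other probe that passed the filter read -2.15, -1.77 and -2.16 in the WT and -2.60, -2.78 and -2.35 in the KO-labelled ureters. On that probe the groups did not overlap.

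Markers of other cell types were summed as well. Over all genes, 4.35% were higher and 4.70% lower at an unadjusted p under 0.05. Of 15 monocyte and macrophage markers, 8 were lower and none higher at an unadjusted p under 0.05, with sums of 787 to 879 in WT and 601 to 753 in KO-labelled ureters. Of 10 dendritic cell and MHC class II markers, 9 were lower, with sums of 289 to 337 against 79.3 to 169. Of 19 urothelial markers, 7 were higher and 1 lower, with sums of 330 to 456 against 540 to 760. Of 9 B and plasma cell markers, none differed, and their sums were 45.7 to 76.0 and 63.1 to 66.5. The part of cell composition in the values of Tnfsf18, the Tnfsf13 locus and Tnfrsf13b was not tested, and in bulk tissue fewer cells of a type and less RNA per cell cannot be told apart.

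**Figure D2:**
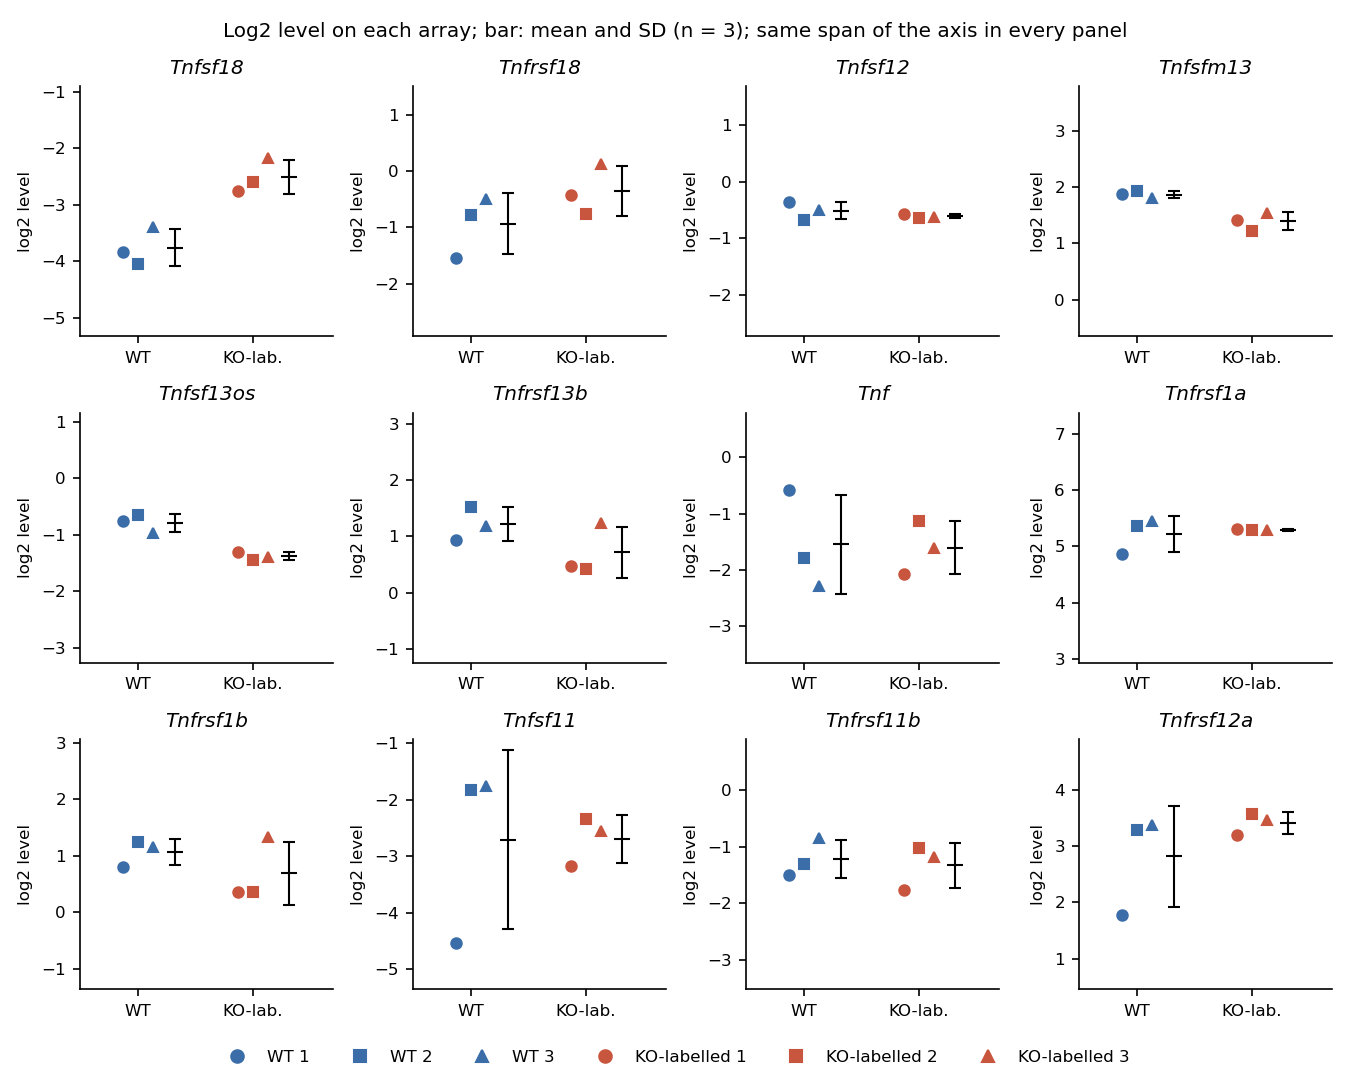
Log2 level on each array for 12 ligands and receptors, by group, with the mean and SD of each group (n = 3) as black bars and the same length of axis in every panel. Tnfsf18, Tnfsfm13 and Tnfsf13os have separate groups, and the first WT mouse lies below the other 5 arrays in Tnfsf11 and Tnfrsf12a and above them in Tnf.

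Lta, which encodes lymphotoxin alpha, a lymphocyte ligand, was dim. Its log2 levels were -5.17, -4.67 and -5.00 in the WT ureters and -4.24, -4.62 and -4.63 in the KO-labelled ureters, and its probe was well above background on 2 of 3 WT arrays. The groups just failed to touch, since the WT mouse with the highest value lay close to the 2 lower KO-labelled mice. The difference was 0.45 ± 0.18 (SE; limma adjusted p = 0.535). It kept p under 0.05 in 6 of 14 alternatives, was 0.04 with normexp, and without 1 array at a time kept it only without the second WT mouse. Lymphotoxin alpha binds the TNF receptors as a homotrimer and the lymphotoxin beta receptor in complex with the product of Ltb. Ltb had log2 levels of 0.26, 0.81 and 0.37 in the WT and 0.06, -0.61 and 0.85 in the KO-labelled ureters, which overlapped (difference -0.38, limma adjusted p = 0.792). Without the third KO-labelled mouse, whose value was the highest of the 6, it was -0.75 and passed the unadjusted threshold, and without the second, whose value was the lowest, it was -0.03. The receptor gene Ltbr was at 2.57, 3.12 and 3.17 in the WT and 3.17, 3.19 and 3.03 in the KO-labelled ureters. Only the first WT mouse stood below the rest, and the difference was 0.18, with a 95% confidence interval of -0.27 to 0.62, or -0.02 without that mouse.

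Tnf, the founding ligand, showed no group difference and a wide spread. Tnf log2 levels were -0.57, -1.78 and -2.28 in the WT ureters and -2.06, -1.13 and -1.61 in the KO-labelled ureters. The first WT mouse was the highest of the 6, also on the second Tnf probe, and the groups overlapped fully. The difference was -0.06 with a 95% confidence interval of -1.19 to 1.07 (limma adjusted p = 0.979), which spans 0.439-fold to 2.1-fold. Without the first WT mouse it was 0.43, still not past the unadjusted threshold.

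The receptors of TNF were measured on all 6 arrays. Tnfrsf1a encodes TNFR1, the widely expressed death-domain receptor. Its log2 levels were 4.86, 5.37 and 5.45 in the WT and 5.30, 5.28 and 5.29 in the KO-labelled ureters, which lay inside the WT range (difference 0.07, 95% confidence interval -0.35 to 0.48). Tnfrsf1b encodes TNFR2, found mainly on leukocytes. Tnfrsf1b log2 levels were 0.80, 1.24 and 1.16 in the WT and 0.37, 0.37 and 1.34 in the KO-labelled ureters. The first 2 KO-labelled mice were the lowest and the third the highest, so the difference of -0.38 did not pass (limma adjusted p = 0.74). Without the third KO-labelled mouse it was -0.70 and passed the unadjusted threshold, and without the first or the second it was -0.215 each time. The second probe of the gene differed by 0.06 over all arrays.

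Tnfrsf12a encodes Fn14, the receptor of TWEAK. Fn14 log2 levels were 1.78, 3.29 and 3.38 in the WT ureters and 3.19, 3.57 and 3.46 in the KO-labelled ureters. The first WT mouse stood apart from the other 5, which overlapped. The difference of 0.59 ± 0.43 (SE; limma adjusted p = 0.717) was 0.08 without that mouse.

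Tnfrsf11b encodes osteoprotegerin, a soluble decoy receptor for RANKL (Tnfsf11) and TRAIL (Tnfsf10). Its log2 levels were -1.50, -1.31 and -0.85 in the WT ureters and -1.77, -1.03 and -1.19 in the KO-labelled ureters. The groups overlapped, with a difference of -0.11 and a 95% confidence interval of -0.73 to 0.50 (limma adjusted p = 0.922). For Tnfsf11, the log2 levels were -4.53, -1.84 and -1.75 in the WT and -3.17, -2.34 and -2.56 in the KO-labelled ureters. The first WT mouse was far below the rest, and all 3 KO-labelled values lay between it and the other WT values. The difference was 0.02, but -0.90 without the first WT mouse, then past the unadjusted threshold, so the direction rests on 1 array. The signalling receptor RANK, Tnfrsf11a, differed by -0.24 (limma adjusted p = 0.721), with -0.38 to -0.12 when 1 mouse was left out. TRAIL, an apoptosis-inducing ligand, had log2 levels of -0.55, -1.69 and -1.39 in the WT and -1.67, -1.93 and -1.23 in the KO-labelled ureters, which overlapped (difference -0.40, limma adjusted p = 0.752). The difference was -0.07 without the first WT mouse, the highest of the 6. Its receptor Tnfrsf10b differed by 0.20 (limma adjusted p = 0.794).

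Tnfrsf21 was the only receptor with an unadjusted p under 0.05. It encodes the death-domain receptor DR6. For DR6, log2 levels were -0.70, -0.75 and -0.73 in the WT ureters and -0.28, -0.27 and -0.58 in the KO-labelled ureters. The WT values were nearly equal and the third KO-labelled mouse was the closest to them. The difference was 0.35 ± 0.12 (SE; limma adjusted p = 0.49), with p under 0.05 in 10 of 15 alternatives. The second probe of the gene differed by only 0.08, and the mean of both probes by 0.21, which did not pass. Leaving out the second WT mouse, the third WT mouse, or the first or the second KO-labelled mouse also ended the call, at differences of 0.34, 0.35, 0.30 and 0.30.

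**Figure D3:**
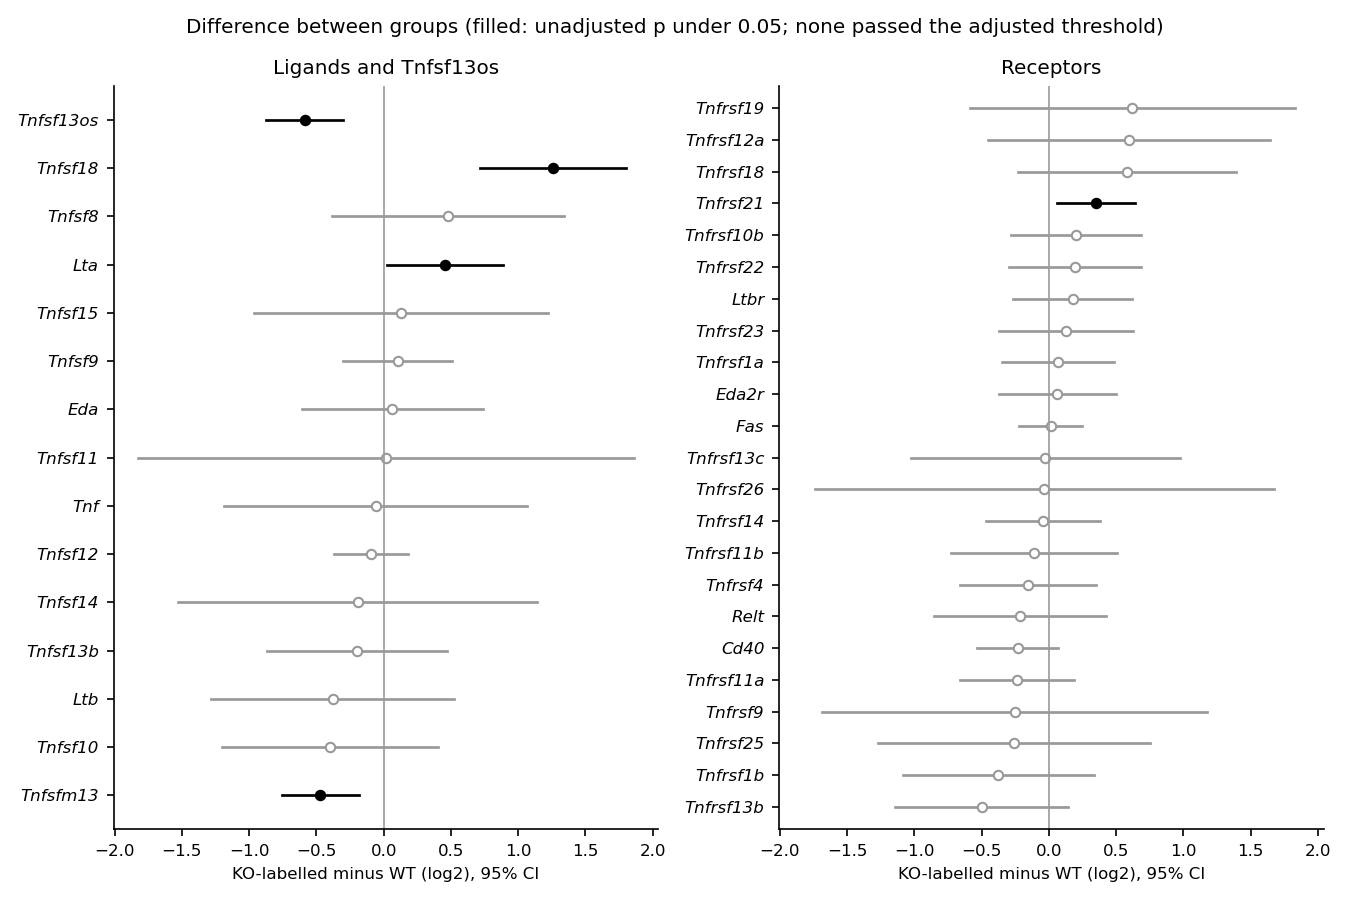
KO-labelled minus WT log2 difference of each measured member (circle) with its 95% confidence interval (line), with filled circles for an unadjusted p under 0.05. The 5 filled members are Tnfsf18, Lta and Tnfrsf21 to the right of 0 and Tnfsfm13 and Tnfsf13os to the left, and Tnfsf11 and Tnfrsf26 have the widest intervals.

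The remaining ligands had differences of -0.20 to 0.48, none past the unadjusted threshold. Tnfsf8, which encodes CD30 ligand, was at -1.85, -0.65 and -0.81 in the WT and -0.98, -0.63 and -0.25 in the KO-labelled ureters on the probe used. These values overlapped (difference 0.48, limma adjusted p = 0.723), and the difference was 0.11 without the first WT mouse. Its other probe had a difference of 1.24, with the first WT mouse at -4.66 against -2.63 to -1.39 on the other arrays. Its receptor Tnfrsf8 was not above background on any array. Tnfsf13b, encoding the B cell survival factor BAFF, differed by -0.20 on its brightest probe and by 0.41 and -0.15 on 2 others, so its probes do not give one direction. Its receptor Tnfrsf13c, a B cell gene, was well above background on 5 of 6 arrays and differed by -0.03. Tnfsf9, the 4-1BB ligand, differed by 0.10 and its receptor Tnfrsf9, induced on activated T cells, by -0.25. The LIGHT gene Tnfsf14 differed by -0.19 and its receptor Tnfrsf14 by -0.04 on its brightest probe. On the other Tnfrsf14 probe the difference was -0.48, and over the mean of its probes -0.26, which did not pass. For Tnfsf15, which encodes TL1A, the difference was 0.13, and for its receptor Tnfrsf25, -0.26. Eda, an X-linked ectodermal ligand, differed by 0.07, and its X-linked receptor Eda2r by 0.06. The lone female mouse was not the highest of the 6 in either, but with 1 female the part of sex was not tested.

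On the probes used, the least variable member was Fas, the death receptor. It was at 0.55, 0.53 and 0.60 in the WT and 0.56, 0.65 and 0.51 in the KO-labelled ureters. These 6 values lay within 0.14 of each other, and the confidence interval of the difference of 0.01 ran from -0.22 to 0.25. A second, dimmer Fas probe varied more, from -3.47 to -2.47, with a difference of 0.07. Fasl, the ligand of Fas, was well above background on 1 array only. Cd40, the receptor of antigen-presenting cells, had a log2 difference of -0.23 (limma adjusted p = 0.621), and of -0.31 without the first WT mouse, which passed the unadjusted threshold, against -0.31 to -0.18 without any other single mouse, which did not. Tnfrsf19, which encodes TROY, spanned -0.26, -1.91 and -1.67 in the WT and -0.15, -0.53 and -1.30 in the KO-labelled ureters. The first WT mouse lay among the KO-labelled values, and the difference of 0.62 (limma adjusted p = 0.746) was 1.13 and past the unadjusted threshold without it. It was 0.31 without the second WT mouse and 0.37 without the first KO-labelled mouse. Over all 6 arrays, the other measured probe of Tnfrsf19 differed by 0.31. The mean of its measured probes differed by 0.47, which did not pass. The decoy TRAIL receptors Tnfrsf22 and Tnfrsf23 differed by 0.19 and 0.12, the OX40 gene Tnfrsf4 by -0.16 and Relt by -0.22, with 1 of 3 Relt probes of the other sign. Tnfrsf26 ranged from -2.98 to -0.67 with a difference of -0.04.

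Members not measured were the ligands Cd40lg, Cd70, Fasl and Tnfsf4 and the receptors Edar, Tnfrsf8 and Tnfrsf17. For Cd40lg, Cd70, Edar and Tnfrsf8 no array was well above background, and for the other 3 there was 1 such array, from a WT mouse. Several of these ligands are known from activated lymphocytes. No fold is given for the unmeasured members. All 6 arrays were well above background for 36 of the 38 measured members, the exceptions being Lta and Tnfrsf13c.

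Spread between mice was as large as most differences. In 34 of 38 members the range within at least 1 group exceeded the difference between the group means, which was also so for 92.0% of all genes. The WT values spanned more than 1 log2 unit in 12 of 38 members, a larger share than the 10.7% of all genes. The KO-labelled values did so in 7 of 38, with no share of all genes computed for comparison. The first WT mouse was the lowest of the 6 in 12 members and the highest in 8, against 29.6% and 25.0% of all genes. The third KO-labelled mouse was the highest in 11 members, against 9.93% of all genes. On that mouse's array the summed neutrophil markers stood at 324, a level that the second WT mouse shared (324) and the other 4 did not reach (147 to 210). The second WT mouse was the highest of the 6 in 7 members, against 24.3% of all genes. Of 12 neutrophil markers, 6 were higher and 6 lower, with a median log2 difference of 0.04. At an unadjusted p under 0.05, 4 were higher and none lower (all genes, 4.35% higher and 4.70% lower). Their sums overlapped between the groups. The part of the neutrophil markers in the members' values was not tested.

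Genes that act downstream of the receptors were described from 4 lists, by count and median. Over all genes, 4.35% were higher and 4.70% lower at an unadjusted p under 0.05, and the median log2 difference was -0.0009. Leukocyte markers are given beside these lists. At this threshold, 9 of 10 dendritic cell and 8 of 15 macrophage markers were lower and none higher. Of 12 neutrophil markers, 4 passed as higher and none as lower, while 6 were higher and 6 lower by sign. None of 13 T and NK cell or 9 B and plasma cell markers passed. The part of these cells in the lists' values was not tested. In the list of adaptors and kinases, 25 of 26 genes were measured, 1 was higher and 1 lower at an unadjusted p under 0.05, and the median log2 difference was -0.03. The lower gene was Traf1, an NF-kB-inducible adaptor of TNFR2 and other receptors. Traf1 log2 levels were 0.81, 1.46 and 1.49 in the WT and -0.41, 0.05 and 0.92 in the KO-labelled ureters. Only the third KO-labelled mouse lay above a WT mouse (difference -1.07 ± 0.37 SE, limma adjusted p = 0.493). The higher gene was Mlkl, the executor of necroptosis, at 0.60, 0.94 and 0.99 against 1.25, 1.18 and 1.15, with separate groups (difference 0.35, limma adjusted p = 0.516). The ubiquitin ligase genes Birc3 and Rnf31 had differences of -0.28 and -0.30 and did not pass.

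Of 16 NF-kB subunits and feedback inhibitors, all measured, 12 were lower and 4 higher, with 3 lower and none higher at an unadjusted p under 0.05 (all genes, 4.70% lower and 4.35% higher). The same dendritic cell and macrophage markers were lower beside them. The median difference was -0.11 and stayed below 0 in every alternative run, from -0.25 to -0.07. The 3 were Tnip3, an inhibitor of NF-kB signalling (difference -0.89, limma adjusted p = 0.477), the deubiquitinase Cyld (-0.30, limma adjusted p = 0.502) and the NF-kB subunit Rel (-0.33, limma adjusted p = 0.545). For Rel, the levels were 0.50, 0.68 and 0.60 in the WT and 0.10, 0.21 and 0.48 in the KO-labelled ureters, which did not overlap. Nfkbie, an IkB inhibitor, differed by -0.48 without passing (limma adjusted p = 0.596).

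Among 26 measured of 27 TNF-inducible genes, 9 were higher and 17 lower, and the median was -0.28. This median depended on single mice, running from -0.47 without the first WT mouse to 0.06 without the second. The adhesion molecule gene Vcam1 was the only one past the unadjusted threshold, with log2 levels of 2.34, 2.62 and 2.49 in the WT and 2.06, 2.20 and 2.29 in the KO-labelled ureters. These groups did not overlap (difference -0.30, limma adjusted p = 0.536). Tnfaip2 and the endothelial adhesion genes Icam1 and Sele differed by 0.51, 0.28 and 0.81, the opposite sign, and did not pass. So the members of this list with the smallest p did not share one direction.

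The last list held 10 genes that process TNF at the cell surface, all measured. By sign, 4 had a positive difference and 6 a negative one, and the list's median was -0.05. At an unadjusted p under 0.05, 1 gene passed as lower and none as higher (all genes, 4.70% lower and 4.35% higher). The gene that passed was Adam17, the sheddase that releases TNF from the membrane. It was at 1.91, 2.05 and 1.81 in the WT and 1.43, 1.48 and 1.74 in the KO-labelled ureters, with separate groups (difference -0.37 ± 0.13 SE, limma adjusted p = 0.495). Sppl2a, an intramembrane protease that cleaves the remaining TNF stub, differed by -0.21, the ADAM17 inhibitor gene Timp3 by 0.50 and Adam10 by 0.14, none past the threshold. A related gene named outside the rule, Ngfr, differed by -0.15, and Cd27 was not measured.

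**Figure D4:**
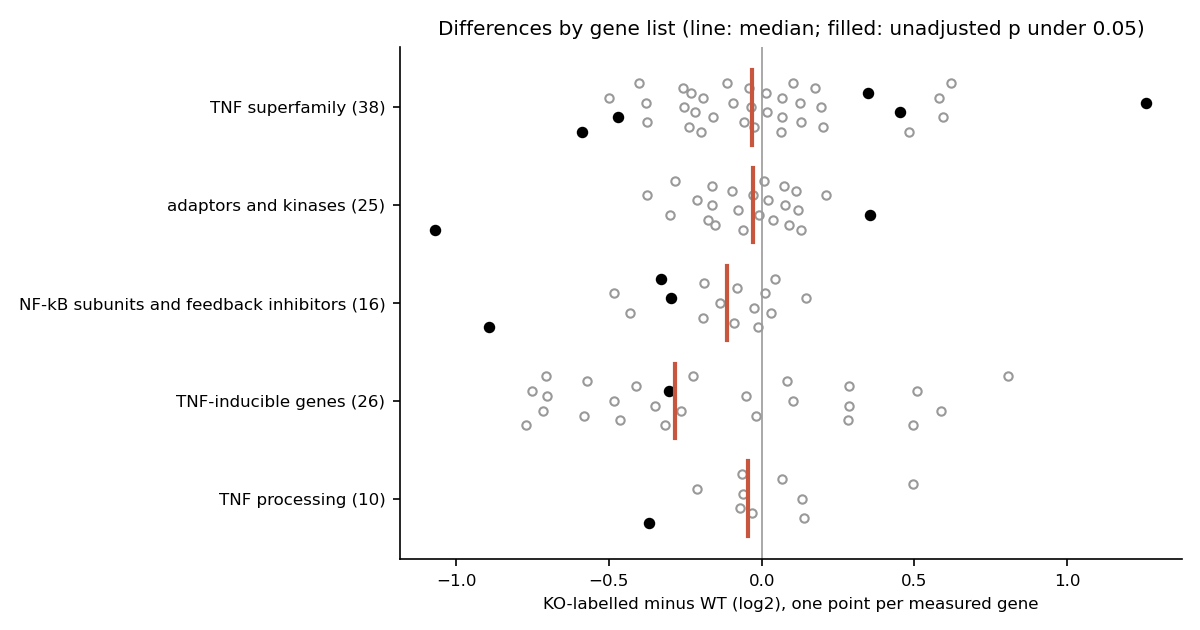
KO-labelled minus WT log2 difference of every measured gene, 1 point each, in the TNF superfamily (38 genes) and 4 lists of genes around it, with the list's median as a red line and filled points for an unadjusted p under 0.05; vertical scatter within a list has no meaning. The medians are -0.03, -0.03, -0.11, -0.28 and -0.05 from top to bottom, and Tnfsf18 is the point farthest to the right.

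Since several members are known NF-kB targets, their promoters were searched for the NF-kB consensus, on both strands, in the 250 bases before the transcription start in RefSeq's GRCm38.p6 annotation. Of 38 promoters of the 34 members with an entry, 4 held a match (10.5%), against 2382 of 32851 promoters of all genes (7.25%). A match describes letters only. Ltb and Tnfrsf9 are printed as 2 examples among the measured members with a match, which is in capitals.
Ltb (chr17:35194257-35194506, plus strand): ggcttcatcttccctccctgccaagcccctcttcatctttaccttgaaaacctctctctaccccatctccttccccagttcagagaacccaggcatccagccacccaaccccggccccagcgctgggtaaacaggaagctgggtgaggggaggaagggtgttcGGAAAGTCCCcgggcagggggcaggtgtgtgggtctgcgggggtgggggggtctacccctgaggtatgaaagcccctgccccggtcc
Tnfrsf9 (chr4:150927749-150927998, plus strand): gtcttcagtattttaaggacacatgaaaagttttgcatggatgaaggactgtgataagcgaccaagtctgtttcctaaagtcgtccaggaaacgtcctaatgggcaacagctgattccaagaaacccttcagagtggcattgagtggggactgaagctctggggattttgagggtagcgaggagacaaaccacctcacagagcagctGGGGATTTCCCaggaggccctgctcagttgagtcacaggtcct
The Tnfrsf9 match reads on both strands, and a second Tnfrsf9 start in the table held none. The others were Tnfrsf25 and the unmeasured Tnfrsf8. None of these 3 measured genes passed the unadjusted threshold, and Ltb, Tnfrsf9 and Tnfrsf25 had log2 differences of -0.38, -0.25 and -0.26.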

How the data were processed

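The arrays were 6 one-colour Agilent arrays, 1 per ureter, scanned on 1 slide. The deposited files hold spot intensity as gProcessedSignal, background-subtracted by Agilent Feature Extraction (12.0.3.1 per the submitters' processing notes), per the file headers. Here log2 intensity minus each array's 75th percentile was used; outlier spots were left out, spots of a probe were averaged, and a gene was its brightest probe. Groups were compared with limma 3.58.1 (lmFit, eBayes) in R 4.3.3, with Benjamini-Hochberg adjustment over 22259 genes at 0.05; unadjusted p-values are given beside the share of all genes that pass. The script was tested on simulated data. Members and lists were chosen with earlier results of these data known. Every array value is given for Tnf, Tnfrsf12a, Tnfrsf11b, members with an unadjusted p under 0.05 or separate groups, and their measured partners; up to 4 genes per pathway list were named by smallest p. Alternatives changed the background correction, scaling, probe filter, probe choice, variance model, replicate block and arrays left out.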

Additional observations from a re-analysis of the deposited data

How the results depend on the processing

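No member passed the adjusted threshold under any of 15 alternatives. Over all genes, 1 passed with the replicate number as a block and 0 to 1 passed without 1 array (1 without the second KO-labelled mouse). Of the same-numbered mice, only the first of each group deviated together from their group means (r = 0.531, against -0.15 and -0.03). Differently numbered mice gave r from -0.451 to 0.462. The numbers were therefore not taken as pairs. At an unadjusted p under 0.05, members higher numbered 1 to 3 and members lower 2 to 5 when 1 array was left out; 5 were lower without the third KO-labelled mouse (adding Ltb, Tnfrsf13b and Tnfrsf1b), 4 without the first WT mouse (adding Tnfsf11 and Cd40), and 4 without both the second WT mouse and the third KO-labelled mouse. For these settings no share of all genes was computed for comparison, so the counts show nothing particular to the family. Lta and Tnfrsf13c had no value where all 6 arrays had to be above background. Of 568 member values under the alternatives, 40 in 19 members lay on the other side of 0, and 1 of these had p under 0.05, that of Tnfsf11 without the first WT mouse; none of the 5 members past the unadjusted threshold crossed. Tnfsf11 was -0.104 with normexp, Tnfrsf13c 0.001 when centred on the median, and Tnfsf13b 0.02 over the mean of its probes. Ranges of the log2 difference when 1 array was left out were -0.895 to 0.494 for Tnfsf11, -0.371 to 0.351 for Tnfrsf13c, -0.347 to 0.09 for Tnfsf13b, -0.426 to 0.425 for Tnf, -0.257 to 0.483 for Tnfsf15, -0.017 to 0.285 for Ltbr, -0.009 to 0.317 for Tnfrsf10b, -0.164 to 0.112 for Tnfrsf14, -0.116 to 0.178 for Tnfrsf1a, -0.068 to 0.292 for Tnfrsf23, -0.513 to 0.162 for Tnfrsf25, -0.167 to 0.285 for Eda, -0.675 to 0.213 for Tnfsf14, -0.051 to 0.234 for Eda2r, -0.026 to 0.046 for Fas, -0.644 to 0.437 for Tnfrsf26, -0.05 to 0.204 for Tnfsf9, -0.264 to 0.109 for Tnfrsf11b and -0.748 to 0.275 for Tnfrsf9. The cause was not tested.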
